A study of Rattus norvegicus with 10 samples.

Results

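Magnesium transport was followed in the kidney cortex of salt-loaded rats through 6 genes: Trpm6, its close relative Trpm7, Cnnm2, Slc41a1, Slc41a3 and Fxyd2. They were picked by symbol from a deposited table of 32545 genes, and all 6 were found there once each. The set was put together around Trpm6 because of its difference between the diets in this same table, so the differences of these genes between the diets are given below as a description and without a test. All 6 passed the filter on low values, as did 14508 genes in all. The rats were of the Dahl salt-sensitive strain (SS/JrHsdMcwi), an inbred line labelled Wildtype whose blood pressure climbs on salt. Telemeters were implanted at 8 to 9 weeks of age, and a diet of 0.4% NaCl was replaced, after 4 days of recording, by 4% NaCl for 3 weeks. One group ate 4% NaCl with 2% oxonic acid, an inhibitor of uricase, the enzyme by which rodents break down uric acid, and the other ate 4% NaCl with vehicle, with 5 libraries in each. The study used males and females, the labels give no sex for each sample, and they do not tie each library to its own rat, so the p-values reflect sample-to-sample spread that could be partly technical.

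Most filtered magnesium returns to the blood between the cells of the thick ascending limb, through claudin pores and driven by the voltage that salt transport sets up there. The distal convoluted tubule then makes the final adjustment through its cells. There TRPM6, an ion channel fused to a kinase, lets magnesium in from the urine, often together with the widely expressed TRPM7, and CNNM2 and the SLC41 proteins have been linked to its passage out on the blood side, while FXYD2, the gamma subunit of the sodium pump, tunes the pump that powers the process. Loss of TRPM6, CNNM2 or FXYD2 function causes magnesium wasting in people.

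The sequences before the starts of Trpm6, Cnnm2 and Trpm7 are shown because the first pair had the largest differences of the set between the diets and Trpm7 is the close relative of Trpm6. Each is the stretch of 250 bases that ends just before a RefSeq transcript start in the GRCr8 build, read 5′ to 3′ on the strand of the gene, and the sequences are RefSeq's. Trpm6 lies on the plus strand at chr1:225559278-225559527, before the outermost of the 3 starts that RefSeq lists for the gene (the deposited table, with other coordinates, has Trpm6 on the minus strand), Cnnm2 on the plus strand at chr1:255584902-255585151 and Trpm7 on the minus strand at chr3:134588114-134588363. Capitals mark matches, on either strand, to the CCAAT box, to the GC box GGGCGG or to the E-box CACGTG, and no match overlapped another.
Trpm6: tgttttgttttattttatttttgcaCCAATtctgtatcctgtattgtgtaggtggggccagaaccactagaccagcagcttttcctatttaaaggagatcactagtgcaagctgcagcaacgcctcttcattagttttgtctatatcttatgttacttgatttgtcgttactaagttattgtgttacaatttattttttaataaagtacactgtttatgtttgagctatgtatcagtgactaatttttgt
Cnnm2: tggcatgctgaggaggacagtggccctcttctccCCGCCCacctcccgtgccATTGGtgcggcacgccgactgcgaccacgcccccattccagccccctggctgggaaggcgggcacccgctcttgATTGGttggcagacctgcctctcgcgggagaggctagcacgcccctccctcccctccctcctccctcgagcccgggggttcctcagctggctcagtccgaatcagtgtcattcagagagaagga
Trpm7: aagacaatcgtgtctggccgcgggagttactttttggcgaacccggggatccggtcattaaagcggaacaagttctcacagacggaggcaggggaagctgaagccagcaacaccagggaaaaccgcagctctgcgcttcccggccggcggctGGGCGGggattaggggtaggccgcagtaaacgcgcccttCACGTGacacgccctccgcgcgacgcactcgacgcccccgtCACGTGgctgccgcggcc

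The stretches differ in base composition. That of Trpm6 held 33.2% G and C with 2 CpG steps (those before the other two starts, nearly the same stretch, held 44.4% with 6 and no CCAAT), that of Cnnm2 67.2% with 15, and that of Trpm7 65.2% with 29, where the median of all 33469 stretches of this length was 51.2%. CCAAT occurred once before Trpm6 and at 2 places before Cnnm2, and 34.0% of all stretches held it. GGGCGG was found before Cnnm2 and Trpm7, once each (30.5% of all stretches), and CACGTG at 2 places before Trpm7 (5.59%). TATAAA (12.9%) and the palindromic estrogen response element (0.0239%) had no match in the 3 stretches printed. The table of sequences matched 4 of the 6 genes, Slc41a3 being the fourth. Fxyd2 and Slc41a1 are named only.

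The libraries held 14.5 M to 18.5 M reads in genes (M, mega). The values are FPKM, fragments per kilobase of gene length scaled to library size. Libraries of both groups carried strong proximal tubule markers (Slc34a1 at 1718 FPKM on average), the sign of cortex, while Slc14a2, the urea transporter of the inner medulla, had 0 reads in 5 of the 10 libraries and 471 reads in oxonic acid library 3 (15.98 FPKM against 0.505 FPKM or less elsewhere). Vehicle library 4 stood apart on the first principal component, at 39.8 against -13.7 to 15.5 for the rest. By the library numbers that the descriptions give, the samples form 3 runs of neighbouring numbers, called A, B and C. All 3 libraries of run A had oxonic acid, against 1 of 4 in run B and 1 of 3 in run C. No label names the runs as batches.

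The 6 genes spanned a wide range of levels. Per kilobase, Fxyd2 was the most abundant at 4364 ± 346 FPKM (SD, n = 10), followed by Trpm7 at 17.4 ± 1.61 FPKM, Cnnm2 at 16.2 ± 2.70 FPKM, Slc41a1 at 8.68 ± 1.38 FPKM, Trpm6 at 3.87 ± 0.632 FPKM and Slc41a3 at 1.14 ± 0.272 FPKM. Neighbours in this order were compared within each library by a two-sided exact sign-flip permutation test on log2 FPKM, with Benjamini-Hochberg adjustment over the 5 pairs. Fxyd2 exceeded Trpm7 by a geometric mean of 250.5-fold, Cnnm2 exceeded Slc41a1 1.86-fold, Slc41a1 exceeded Trpm6 2.25-fold and Trpm6 exceeded Slc41a3 3.44-fold, each in 10 of 10 libraries (exact adjusted p = 0.00244 for each, from the smallest p that 10 libraries allow, 0.00195). Trpm7 and Cnnm2 did not differ beyond their spread. Trpm7 was higher in 7 of 10 libraries and 1.09-fold higher on average (exact adjusted p = 0.0703), and this pair passed without oxonic acid library 5 (1.11-fold, exact adjusted p = 0.0156). The annotated length of Fxyd2 in the table, 258 bp, is short beside the 2610 bp or more of the others, and dividing by it raises its level relative to theirs, but by reads alone, 15804 to 20623 per library, it still led the order, 11.5-fold above Trpm7. Without the division by length Trpm6 had 8.01-fold the reads of Slc41a3.

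**Figure D1:**
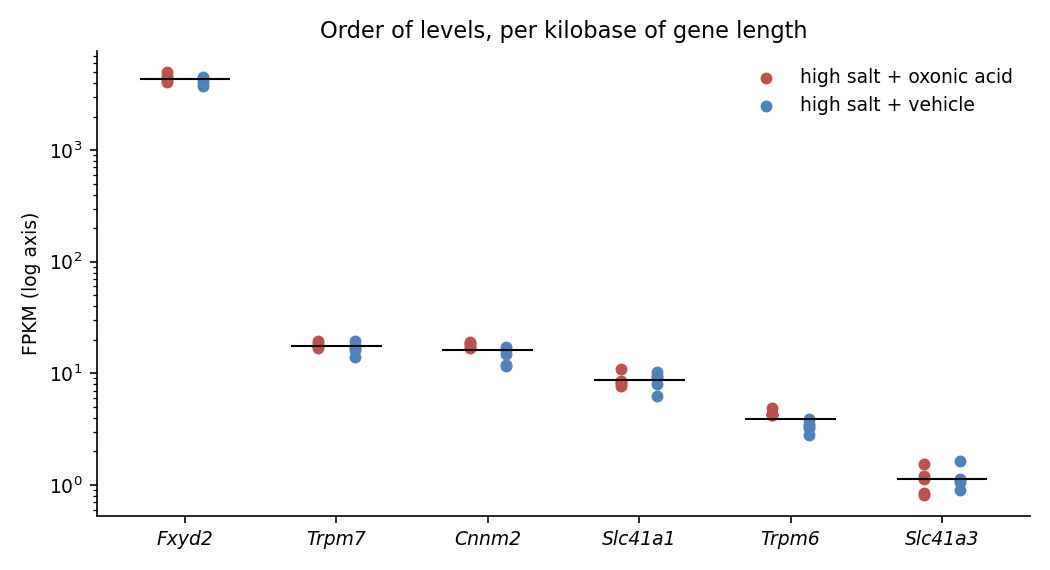
FPKM of the 6 genes on a log axis, ordered by their mean (black line) over 10 libraries, with oxonic acid libraries in red and vehicle libraries in blue, 5 points each. Fxyd2 lies at 4364 FPKM on average and the other 5 genes between 1.14 and 17.4 FPKM, with Trpm7 and Cnnm2 overlapping.

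Trpm6, the apical magnesium channel, was the one gene of the 6 whose groups did not overlap (ENSRNOG00000013053, chromosome 1, 234479289 to 234596971 by the authors' table, for which no source used here names a build). In oxonic acid libraries 1 to 5 it measured 4.21, 4.26, 4.86, 4.34 and 4.27 FPKM, and in vehicle libraries 1 to 5 it measured 3.53, 3.22, 3.86, 2.78 and 3.37 FPKM. The lowest oxonic acid library thus lay above the highest vehicle library, and library 3 was the highest of each group. Among all genes tested, 0.944% had groups that did not overlap with oxonic acid higher, a share from which nothing is read for Trpm6, since this contrast chose it. Averaging 4.39 ± 0.267 FPKM against 3.35 ± 0.397 FPKM under vehicle (SD, n = 5 each), the groups had a ratio of 1.31 and a log2 difference of 0.35 (SE 0.09). Trpm6 rested on 260 to 483 reads per library, for which counting alone gives a coefficient of variation of 5.11%. A small RNA of the 7SK family on the opposite strand overlaps Trpm6 and averaged 0.0206 FPKM. The measured coefficient was 6.08% within the oxonic acid group and 11.8% within the vehicle group.

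Limma's test over all 14508 genes called 0 of them (0%) at an adjusted p under 0.05, none of the 6 included, with 1377 genes at an unadjusted p under 0.05. On recovered reads, limma's voom found 0 as well (1414 genes under 0.05 before adjustment). Within the runs of sample numbers, the log2 difference of Trpm6 was 0.26 in run B (4.34 FPKM in the 1 oxonic acid library, 3.54 FPKM on average in 3 vehicle libraries) and 0.42 in run C (4.27 FPKM in 1 and 3.08 FPKM on average in 2). Run A has no vehicle library and gives no difference. In a bulk cortex, more channel RNA per cell and more cells of the distal convoluted tubule cannot be told apart.

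Trpm7, the channel kinase that most cells express, overlapped between the diets (ENSRNOG00000057806, chromosome 3, 119259467 to 119330345). Its values were 16.8, 19.5, 17.6, 18.7 and 17.6 FPKM in oxonic acid libraries 1 to 5 and 19.4, 16.2, 17.4, 14.1 and 16.9 FPKM in vehicle libraries 1 to 5. Vehicle library 4 was the lowest of the 10, and vehicle library 1 was higher than 4 of the 5 oxonic acid libraries. The means were 18.0 ± 1.08 and 16.8 ± 1.94 FPKM (SD, n = 5 each), a log2 difference of 0.10 (SE 0.08). Set against Trpm7 in the same library, Trpm6 amounted to 21.8% to 27.6% with oxonic acid and 18.1% to 22.1% with vehicle, ranges that overlap slightly.

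Cnnm2, the basolateral protein of the distal convoluted tubule, was nearly separated between the diets (ENSRNOG00000020113, chromosome 1, 266530477 to 266649398). It measured 16.9, 18.7, 17.2, 18.4 and 19.2 FPKM in oxonic acid libraries 1 to 5 and 16.1, 11.6, 14.8, 11.8 and 17.1 FPKM in vehicle libraries 1 to 5. Vehicle libraries 2 and 4 were the low ones, and vehicle library 5 reached past oxonic acid library 1, so that 4 of 5 oxonic acid libraries lay above every vehicle library. The means of 18.1 ± 0.973 and 14.3 ± 2.51 FPKM (SD, n = 5 each) gave a ratio of 1.27 and a log2 difference of 0.35 (SE 0.11), as large as that of Trpm6. Its log2 difference was 0.38 in run B and 0.42 in run C. Relative to Cnnm2, Trpm6 was at 24.3% ± 2.39 with oxonic acid and 23.8% ± 3.26 with vehicle (SD, n = 5 each).

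The SLC41 carriers showed no such separation. Slc41a1, a sodium-magnesium exchanger (ENSRNOG00000042320, chromosome 13, 48607308 to 48627999), measured 7.97, 8.29, 8.55, 11.03 and 7.70 FPKM in oxonic acid libraries 1 to 5 and 9.46, 10.3, 9.19, 8.06 and 6.24 FPKM in vehicle libraries 1 to 5. The highest value of the 10 was in oxonic acid library 4 and the lowest in vehicle library 5, and the means were 8.71 ± 1.34 and 8.65 ± 1.58 FPKM (SD, n = 5 each). The log2 difference of Slc41a1 was 0.02 (SE 0.13), and its sign turned under 6 of 22 alternative settings. Slc41a3, a mitochondrial member of the family and the least abundant gene here (ENSRNOG00000045821, chromosome 4, 123467549 to 123510217), measured 1.54, 1.13, 0.844, 1.20 and 0.819 FPKM with oxonic acid and 1.11, 1.64, 1.14, 1.07 and 0.902 FPKM with vehicle, in the same order. The groups covered nearly the same range. Slc41a3 had 31 to 81 reads per library, a counting coefficient of variation of 14.3%, and a log2 difference of -0.06 (SE 0.16) whose sign turned under 3 of 22 settings. For both genes the 22 include filter settings and a replicate block, which cannot move the difference.

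Fxyd2, the regulator of the sodium pump (ENSRNOG00000016469, chromosome 8, 49710477 to 49716955), was among the most abundant transcripts of the cortex and overlapped between the diets. Oxonic acid libraries 1 to 5 gave 5032, 4218, 4438, 4087 and 4665 FPKM, and vehicle libraries 1 to 5 gave 4099, 3785, 4357, 4534 and 4420 FPKM. Oxonic acid library 1 was the highest and vehicle library 2 the lowest, with the groups overlapping between them. The means were 4488 ± 375 and 4239 ± 299.99 FPKM (SD, n = 5 each), a log2 difference of 0.08 (SE 0.09).

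**Figure D2:**
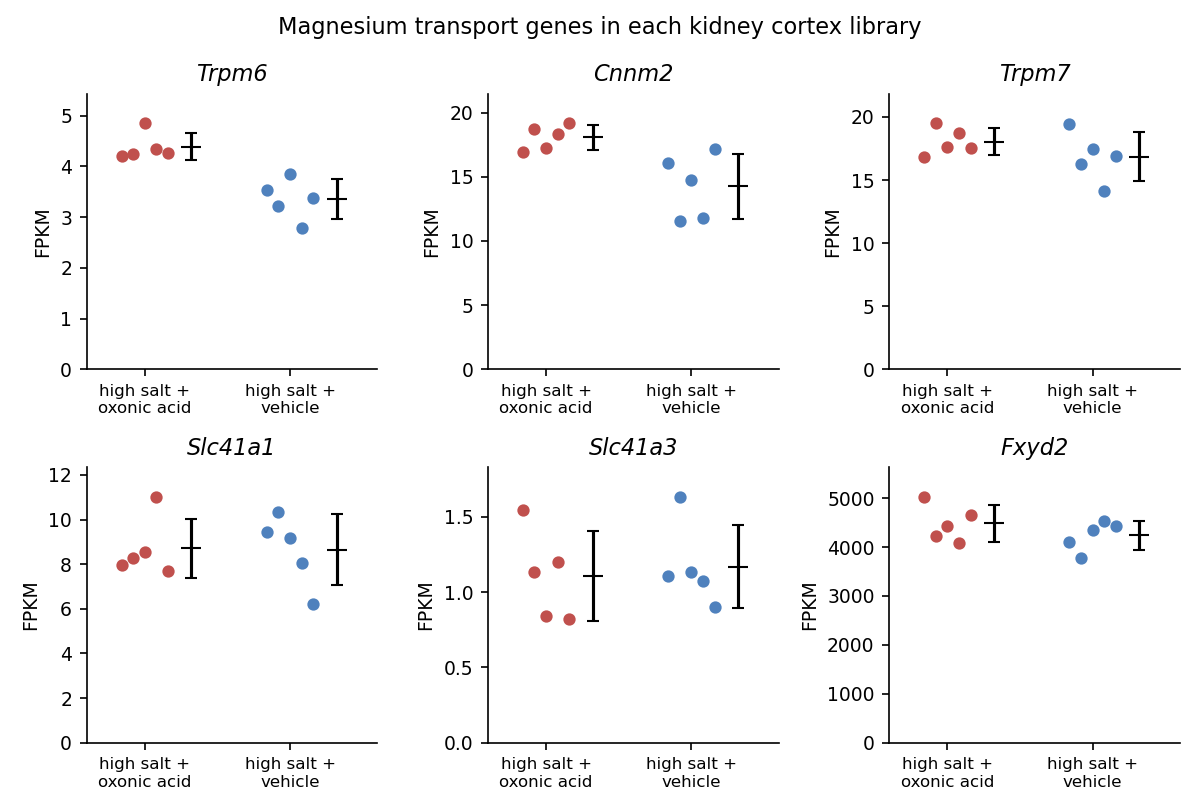
FPKM of each gene in each library, with 5 points per group in the order of library number, and the mean and SD of the group in black; the axes start at 0. The groups are separate for Trpm6 (4.21 to 4.86 against 2.78 to 3.86 FPKM) and overlap for the other 5 genes.

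The set as a whole had 5 genes with a higher and 1 with a lower mean with oxonic acid, with a median log2 difference of 0.09, beside 51.8% higher and a median of 0.01 over all genes tested. The other genes of magnesium handling were counted from 5 lists. Of their 43 tested genes, 30 (69.8%) had a positive log2 difference and 13 a negative one, with a median of 0.08, and 0 passed the test. In 3 of the 43 the groups did not overlap, all with oxonic acid higher, where over all genes tested 0.944% did so with oxonic acid higher and 0.965% with vehicle higher. These lists were written with earlier results of these data known and are not independent evidence.

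Among 13 other carriers of magnesium, 8 were higher and 5 lower, with a median log2 difference of 0.00. Of the 4 most abundant, 3 had similar means in both groups: Magt1, a plasma membrane and endoplasmic reticulum magnesium transporter, measured 24.5 ± 2.16 and 24.4 ± 1.58 FPKM with oxonic acid and vehicle, its relative Tusc3 22.2 ± 1.53 and 23.1 ± 1.95 FPKM, and Nipa2 17.4 ± 0.825 and 18.0 ± 1.07 FPKM (SD, n = 5 each). The other, Cnnm3, a paralog of Cnnm2, measured 20.9 ± 0.851 and 18.3 ± 1.67 FPKM, with 4 of 5 oxonic acid libraries above every vehicle library and a log2 difference of 0.19 (SE 0.07). The largest difference on the list, named after its values were seen, was that of Nipal1, a carrier of the NIPA family. Nipal1 measured 6.11, 4.03, 4.95, 4.17 and 3.75 FPKM in oxonic acid libraries 1 to 5 and 3.68, 3.17, 2.92, 2.65 and 2.37 FPKM in vehicle libraries 1 to 5, without overlap (log2 difference 0.55, SE 0.14).

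The genes of the thick ascending limb divided by role. Of the 4 claudins of the paracellular route that were tested, 2 were higher and 2 lower. Cldn16 and Cldn19, which form the magnesium-permeable pore, had log2 differences of -0.01 (SE 0.20) and 0.08 (SE 0.23). Those of Cldn10 and Cldn3 were 0.15 (SE 0.11) and -0.14 (SE 0.29). Cldn14, which blocks that pore, was under the filter, with 36 reads in all libraries together. The 8 genes that build the driving voltage or sense calcium and magnesium in this segment all had higher means with oxonic acid, with a median log2 difference of 0.30. None of the 8 passed or had groups without overlap. Umod (uromodulin) measured 1621 ± 473 and 1332 ± 253 FPKM, the cotransporter Slc12a1 145 ± 62.3 and 103 ± 23.9 FPKM, and the potassium channel Kcnj1 82.9 ± 27.7 and 62.5 ± 6.32 FPKM (SD, n = 5 each). Summed over the list, the oxonic acid libraries ran from 1422 to 2885 FPKM and the vehicle libraries from 1251 to 1912 FPKM. Oxonic acid libraries 1 and 3 had the highest sums, 2885 and 2144 FPKM, and also the highest sums of inner medulla markers (208 and 181 FPKM, against 40.7 to 119.9 FPKM in the other 8 libraries) and of principal cell markers (292 and 298 FPKM, against 142 to 197 FPKM). The thick limb and inner medulla lists share 1 gene. The part of those cells in the thick limb values was not tested. Both libraries belong to run A, and a fit that takes the runs as a block gave the thick limb list a median log2 difference of 0.17.

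The pump and the channels that set the membrane potential of distal cells were split in sign, with 3 of 5 higher and a median log2 difference of 0.01. Atp1b1, the beta subunit of the pump that FXYD2 joins, measured 1195 ± 155 and 1219 ± 83.0 FPKM (SD, n = 5 each). Kcnj16, a basolateral potassium channel subunit, had a log2 difference of -0.04 (SE 0.09), and Kcnj15 one of 0.18 (SE 0.15). The largest on the list, named after its values were seen, was that of Kcnj10, another such subunit, at 13.2 ± 1.36 and 9.56 ± 2.87 FPKM (SD, n = 5 each), with overlapping groups and a log2 difference of 0.49 (SE 0.19). Kcna1, a potassium channel linked to magnesium entry, had 0 reads in all 10 libraries.

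The regulators were mixed as well, with 9 of 13 higher and a median log2 difference of 0.07. Msrb1, a methionine sulfoxide reductase that acts on TRPM6, measured 404 ± 22.5 and 401 ± 27.7 FPKM, Pcbd1, a transcriptional cofactor, 209.98 ± 15.99 and 217 ± 13.8 FPKM, the scaffold gene Gnb2l1 165 ± 9.89 and 176 ± 17.6 FPKM, and Ptp4a2, whose product binds CNNM proteins, 138 ± 6.77 and 138 ± 8.86 FPKM (SD, n = 5 each). The groups of Esr1, the estrogen receptor, named after its values were seen, did not overlap. Esr1 measured 14.6, 14.9, 12.7, 12.7 and 12.2 FPKM in oxonic acid libraries 1 to 5 and 10.6, 9.82, 11.7, 11.3 and 10.02 FPKM in vehicle libraries 1 to 5, a log2 difference of 0.31 (SE 0.08). Egf, the growth factor that stimulates TRPM6, overlapped, at 29.7 to 46.4 FPKM with oxonic acid and 22.5 to 33.8 FPKM with vehicle (log2 difference 0.45, SE 0.14). Neither passed the limma threshold.

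**Figure D3:**
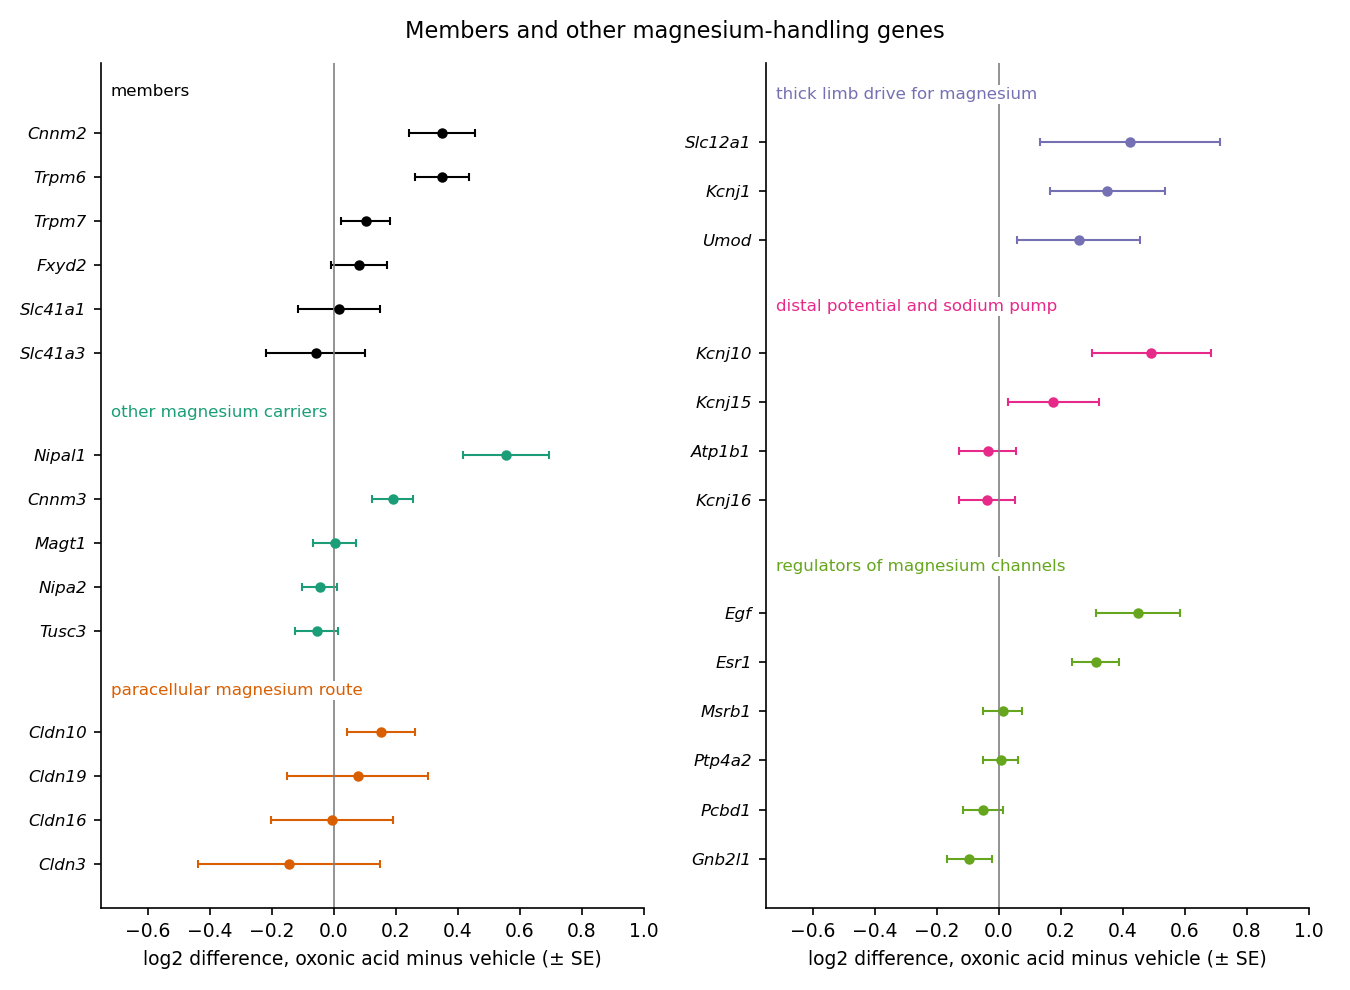
Log2 difference (oxonic acid minus vehicle, with SE, on log2(FPKM + 0.5)) of the 6 members in black and of the 22 other magnesium-handling genes named in the text, by list, sorted within each. Cnnm2 and Trpm6 lie at 0.35, the other 4 members between -0.06 and 0.10, and Nipal1 at 0.55.

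Markers of the cells that hold TRPM6 were compared beside it. Of 7 tested markers of the distal convoluted tubule, 5 had higher and 2 lower means with oxonic acid. Their log2 differences ran from -0.11 to 0.49, with a median of 0.16. Their summed level was 238 to 268 FPKM with oxonic acid and 186 to 249 FPKM with vehicle. In 1 of the 7 the groups did not overlap, with oxonic acid higher, as in 0.944% of all genes tested. It was Stk39, named after its values were seen, at 8.62 to 10.88 against 6.72 to 8.48 FPKM (log2 difference 0.34, SE 0.09). Parvalbumin (Pvalb), used as a marker of this segment in mice, had 1 read in 1 of the 10 libraries and so could not mark it here. Slc12a3, the thiazide-sensitive cotransporter of the segment, averaged 100.4 ± 14.5 and 92.0 ± 25.9 FPKM (SD, n = 5 each), and Ppp1r1a 91.0 ± 25.4 and 73.2 ± 13.9 FPKM. As a percentage of Slc12a3 in the same library, Trpm6 ran from 3.67% to 5.35% with oxonic acid and from 2.58% to 4.85% with vehicle. On this scale the groups overlapped. Calb1 is a marker of the connecting tubule and late distal convoluted tubule. As a percentage of Calb1, Trpm6 averaged 2.28% ± 0.293 with oxonic acid and 2.49% ± 0.919 with vehicle (SD, n = 5 each). The vehicle values, reaching 3.93%, extended both below and above the oxonic acid range of 1.97% to 2.68%. The order of these means is therefore not read as a reversal. Cnnm2 ran from 16.5% to 21.5% and from 13.1% to 17.4% of Slc12a3.

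Marker levels of other cell types also differed in mean, though 0 of these genes passed the test. All 6 principal cell markers were higher with oxonic acid, their summed level running from 167 to 298 FPKM against 142 to 195 FPKM with vehicle. The 5 tested inner medulla markers had higher means as well, with sums of 83.5 to 208 FPKM against 40.7 to 119.9 FPKM. Cryab, the most abundant of them, had a lower median with oxonic acid (96.3 against 102.8 FPKM). The higher mean of Slc14a2 rested on oxonic acid library 3 alone. Tubular injury markers were lower in 5 of 6 genes (677 to 1436 FPKM against 1223 to 3110 FPKM, with 0 of the 6 at 0 reads in any library), and macrophage markers in 5 of 5 tested genes (82.7 to 105 FPKM against 108 to 139 FPKM, with Cd163 at 0 reads in 1 library). The mitochondrial share of reads was 12.6% ± 0.773 with oxonic acid and 11.2% ± 1.14 with vehicle (SD, n = 5 each). The highest inner medulla and principal cell sums were those of oxonic acid libraries 1 and 3. The part of these shifts in the values of Trpm6 and Cnnm2 was not tested. The log2 difference of Trpm6 was 0.36 without oxonic acid library 1 and 0.31 without library 3, which had the highest Trpm6, and without vehicle libraries 4 and 5 it was 0.28.

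To see what varied with Trpm6 apart from diet, the mean of each group was subtracted and the deviations of the 10 libraries were compared. None of 6 relations passed (exact permutation of libraries within groups, Benjamini-Hochberg adjusted). Trpm6 and Trpm7 had a Pearson r of 0.63 (exact p = 0.119, adjusted p = 0.512) and a Spearman rho of 0.68 (exact p = 0.0606, adjusted p = 0.182), and r was 0.28 without vehicle libraries 3 and 4, the ones farthest from the median of Trpm6. With Cnnm2 r was 0.49 (exact p = 0.334, adjusted p = 0.667) and rho 0.61 (exact p = 0.126, adjusted p = 0.252), and r was 0.23 without those libraries. With the mean of the distal convoluted tubule markers r was 0.60 (exact p = 0.171, adjusted p = 0.512), rho 0.77 (exact p = 0.0361, adjusted p = 0.182) and r without those libraries 0.30. With Slc41a1 r was 0.16 (exact p = 0.720) and rho 0.24 (exact p = 0.545), with Slc41a3 r was -0.23 (exact p = 0.523) and rho -0.37 (exact p = 0.305), and with Fxyd2 r was -0.16 (exact p = 0.674) and rho -0.22 (exact p = 0.563). The runs of sample numbers hold too few libraries for a value within each. With the runs removed as a block, r was 0.50 for Trpm7, 0.66 for Cnnm2, 0.74 for the markers and 0.20 for Fxyd2. In that setting it was -0.67 for Slc41a1 and -0.77 for Slc41a3, the latter with an exact permutation p of 0.0278 (adjusted p = 0.167). The signs for Slc41a1 and Fxyd2 thus turned, and 0 of 6 passed. With the runs as a block there are only 72 arrangements, too few for any relation to pass alone after adjustment. That 0 is therefore not read as a result.

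**Figure D4:**
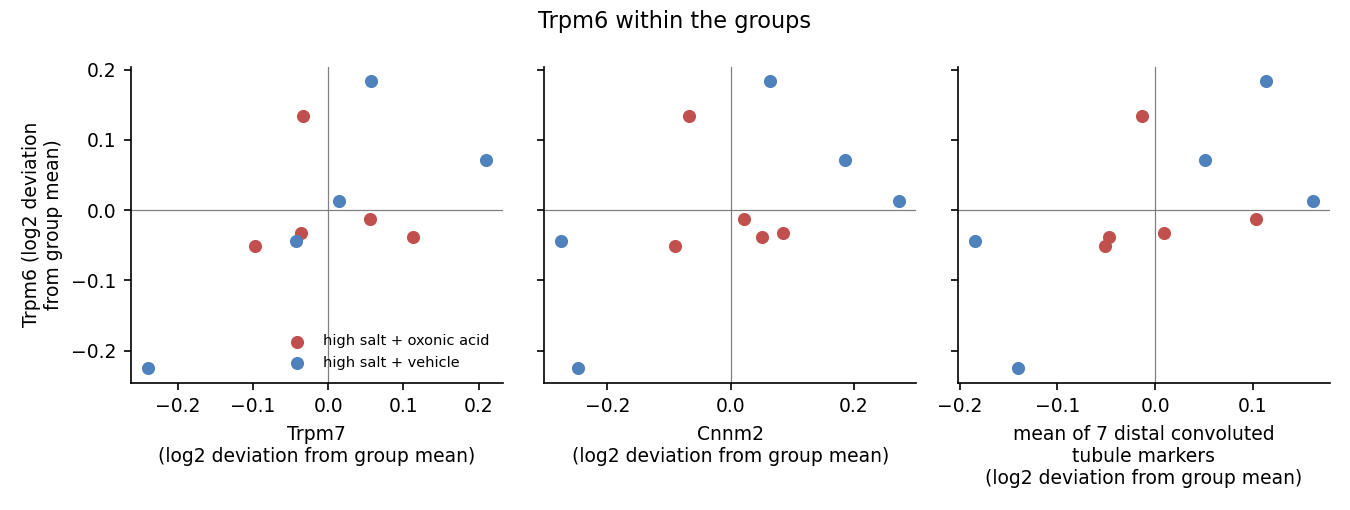
Deviation of Trpm6 from its group mean in log2(FPKM + 0.5) against that of Trpm7, of Cnnm2 and of the mean of 7 distal convoluted tubule markers, one point per library (oxonic acid red, vehicle blue). Vehicle library 4 is low on both axes in each panel, at -0.23 for Trpm6, and r is 0.63, 0.49 and 0.60.

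Over 11450 other protein-coding genes at 1 FPKM or more, the deviations most like those of Trpm6 were those of Phc1 (r = 0.97, rho = 0.88), Atp2a3 (0.93, 0.83), Pax2 (0.91, 0.92), Tubgcp4 (0.91, 0.79) and Iqsec2 (0.90, 0.89), over 10 libraries. The least like were Ptcd2 (r = -0.95), Sde2 (-0.95) and Hbegf (-0.95). These are the ends of a wide distribution, 5% of genes lying above 0.70 and 5% below -0.68, and they share libraries and depth. Without vehicle libraries 3 and 4 the 5 highest had r of 0.67 to 0.95. By the same measure Trpm7 ranked 980 and Cnnm2 1942 of 11450. Pax2, a transcription factor of kidney development, measured 13.5 ± 0.402 and 10.9 ± 1.34 FPKM in the oxonic acid and vehicle groups (SD, n = 5 each), and Phc1, a polycomb protein gene, 7.19 ± 0.592 and 6.52 ± 0.649 FPKM.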

How the data were processed

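RNA of kidney cortex was measured in 10 libraries, 5 per diet, grouped by their titles, and the description's library name tied each table column to its sample. The authors deposited FPKM per gene and library. Per the submitters' processing notes, featureCounts 1.5.0-p3, HISAT2 2.0.5, fastp and StringTie 1.3.3b were used. The build was not given in the sources consulted, and the labels' protocols do not say whether the libraries were directional. FPKM were multiplied by gene length and divided by a constant of each library, estimated from its smallest values. This gave whole reads for 100% of values, to within 0.01 read plus a small margin that grows with the count. These were used as recovered reads. Poly-A selection and FPKM give relative abundance.

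Genes with a mean of at least 0.5 FPKM were tested on log2(FPKM + 0.5) with limma 3.58.1 (lmFit, eBayes with trend) in R 4.3.3, two-sided, with Benjamini-Hochberg adjustment over 14508 genes and a threshold of 0.05. The pseudocount understates changes of low genes. The code of the test was tried on simulated data in which genes varied independently, without runs or an outlying library. That trial does not show what the test can find in these 10 libraries. Exact permutation tests were run in Python 3.11.15 with numpy 2.4.6 and scipy 1.17.1, and figures were drawn with matplotlib 3.10.9. The members and lists were chosen with earlier results of these data known. Named are the 6 members, the 4 genes of highest mean per pathway list and up to 2 per marker list, and the 5 genes most and 3 least like Trpm6. Nipal1, Kcnj10, Esr1, Egf, Stk39, Slc14a2, Cd163, Cldn14, Kcna1 and Pvalb were added after their values were seen. Some genes that this rule covers are not reported here. Of 10 marker lists, those of connecting tubule (3 of 5 tested genes higher), proximal tubule (7 of 8), intercalated cell (4 of 6), podocyte (4 of 5) and endothelium (4 of 4) had log2 differences with medians of 0.07, 0.08, 0.06, 0.29 and 0.11. No 2 libraries agreed within sampling noise (lowest chi-square per degree of freedom 5.00). Alternatives covered the pseudocount, filter, scaling, model, runs, replicate numbers and single libraries.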

Additional observations from a re-analysis of the deposited data

Results flagged for a closer look

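In 59 genes, each group of 5 was searched for a library far from the others, by a gap to its nearest neighbour above 0.71 of the group's range. It was met by 14 values, where chance gives about 5% of the 118 groups searched. Among the magnesium transport genes, Trpm6 was high in oxonic acid library 3 (4.86 FPKM against 4.34 FPKM in the next), and Slc41a1 was high in oxonic acid library 4 (11.03 against 8.55 FPKM). Phc1 (8.22 FPKM), Pax2 (14.2 FPKM) and Slc14a2 (15.98 FPKM, the next at 0.454 FPKM) were also high in oxonic acid library 3. Phc1 and Pax2 were picked for their likeness to Trpm6 across these libraries, so their values there are not independent of its own. Vehicle library 5 was low in Slc12a1 (60.5 against 109.7 FPKM in the next), Cldn16 (11.3 FPKM), Cldn3 (8.59 FPKM) and Cryab (35.4 FPKM). Oxonic acid library 2 was high in Cnnm3 (22.3 FPKM) and Atp2b1 (19.2 FPKM), library 1 in Cldn10 (122.7 FPKM) and library 5 in Pcbd1 (237.6 FPKM). Slc14a2 was highest of the vehicle libraries in library 4 (0.505 FPKM).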

How the results depend on the processing

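Over 22 alternatives, the log2 difference of Trpm6 ran from 0.28 to 0.39, that of Cnnm2 from 0.28 to 0.42, that of Trpm7 from 0.03 to 0.16 and that of Fxyd2 from 0.03 to 0.14, each with its sign kept. The filter settings and the replicate block among the 22 leave the log2 difference of a gene unchanged by design. They are therefore no check on its sign. Slc41a1 ran from -0.15 to 0.15 and Slc41a3 from -0.16 to 0.03. The lowest value of Trpm6 was without vehicle libraries 4 and 5, an alternative chosen after seeing the data. The number of genes past the threshold was 0 except for 1 with library quality weights (Tap2, lower) and 1 without vehicle library 1 (SNORA3, higher), so that leaving out single libraries gave 0 to 1. The cause was not tested. The labels give both groups the replicate numbers 1 to 5. With the replicate block 0 genes passed and the log2 difference of Trpm6 was 0.35. The deviations of same-numbered libraries correlated at -0.01 to 0.20. Oxonic acid library 5 was most like vehicle library 5 (0.20), while oxonic acid libraries 1 to 4 were most like vehicle libraries of other numbers. Such correlations cannot decide whether the numbers pair the samples, and no label says so. The median of the regulator list was 0.032 to 0.10 with single libraries left out and 0.027 without vehicle libraries 4 and 5, against 0.07. The median of the claudins ran from -0.12 to 0.16 and that of the thick limb list from 0.17 to 0.42. Of the 5 neighbouring pairs of levels, 4 passed and 5 without oxonic acid library 5 or with no division by gene length (chosen after seeing the data). None of 6 relations of Trpm6 passed in any of 15 alternatives. With the runs as a block, its 72 arrangements were too few for a relation to pass alone. With 31 to 81 reads, Slc41a3 is the gene that depth limits most.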
